A study of Mus musculus with 10 samples.

Results

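Gpr55, Sectm1b, Plekha6, Anpep, Slc27a2, Gpc3, Cnksr1, Grb7, Atp6ap1l and Prr15l are 10 of the 24306 genes in the count table of a study of mouse ovaries aged 6 weeks. They were picked by name as genes with lower RNA in ovaries that carry a deletion of the retinoic acid receptors, so their difference from controls is the reason they are described here and not a finding. All 10 were found in the count table and in the FPKM table, and all 10 passed the filter on low counts. The 10 polyA RNA libraries came from whole ovaries of mice on a mixed C57BL/6 and 129 background. In the Dmrt1 het Rar mutants (n = 2) the genotype was Dmrt1 fl/+ and Sf1-Cre+, with f/f alleles at each of Rara, Rarb and Rarg. The Rar mutants (n = 3) had the same floxed receptor alleles and Sf1-Cre+, with Dmrt1 +/+. Controls (n = 5) were Dmrt1 +/+, carried all of the floxed receptor alleles too, and were Sf1-Cre-. Both Cre-positive groups together are called Rar-deleted ovaries (n = 5). All of them carry Sf1-Cre and no control does, so deletion of the receptors and presence of the Cre cannot be told apart. Sf1-Cre is driven by Nr5a1 (Sf1) sequences, which work in gonadal somatic cells, so cells of the whole ovary in which this promoter is silent keep their receptors. The labels do not say whether each library came from a separate animal, so the p-values measure the spread between these libraries.

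Retinoic acid, made from vitamin A, acts through the nuclear receptors encoded by Rara, Rarb and Rarg. These receptors pair with retinoid X receptors and bind direct repeats of a short core motif, and genes near such sites can respond to the ligand. The genes described here have roles at the cell surface and in signalling within the cell. Gpr55 encodes a G protein-coupled receptor for lysophosphatidylinositol, and Sectm1b encodes a member of the family of human SECTM1, a ligand of CD7. Gpc3 (glypican 3) encodes a heparan sulphate proteoglycan of the cell surface, and Anpep encodes aminopeptidase N, a membrane ectopeptidase. Slc27a2 encodes a fatty acid transport protein with acyl-CoA synthetase activity. Grb7 encodes an adaptor of receptor tyrosine kinases that include ERBB2, Cnksr1 a scaffold of RAS signalling, and Plekha6 a protein with a pleckstrin homology domain. Atp6ap1l is named for its likeness to an accessory subunit of the proton pump of vesicles. Prr15l encodes a small proline-rich protein.

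The start regions of the genes were searched because the genes were low together in ovaries with a deletion of the receptors. The windows ran from 250 bases before to 50 bases after the start of the gene in RefSeq (GRCm38.p6), and 7 of the 10 genes had one. Those of Plekha6 (chr1:133245847-133246146) and Anpep (chr7:79848161-79848460) lie well inside the gene positions given below, so they cover an internal start. The window of Slc27a2 also lies inside, close to the start of the gene. Grb7, Atp6ap1l and Prr15l are not in the table of promoters. The core motifs searched were AGGTCA and AGTTCA on both strands. Direct repeats of either core motif with 1, 2 or 5 bases between them were in 0 of the 7 windows, against 53 of all 32851 windows of this length (0.161%). At least 1 core motif was in 3 of the 7 windows, against 27.7% of all windows. Those 3 windows are shown, 5′ to 3′ on the strand of the gene, with the matched core motifs in capitals. They lie at chr1:85961006-85961305 on the minus strand (Gpr55), chr11:121063520-121063819 on the minus strand (Sectm1b) and chr2:126552774-126553073 on the plus strand (Slc27a2).
Gpr55: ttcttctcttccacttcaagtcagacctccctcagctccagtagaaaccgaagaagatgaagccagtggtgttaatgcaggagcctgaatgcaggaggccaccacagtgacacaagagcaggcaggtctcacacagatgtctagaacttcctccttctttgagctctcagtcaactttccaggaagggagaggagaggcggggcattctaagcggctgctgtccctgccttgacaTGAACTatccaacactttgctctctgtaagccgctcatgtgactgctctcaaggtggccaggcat
Sectm1b: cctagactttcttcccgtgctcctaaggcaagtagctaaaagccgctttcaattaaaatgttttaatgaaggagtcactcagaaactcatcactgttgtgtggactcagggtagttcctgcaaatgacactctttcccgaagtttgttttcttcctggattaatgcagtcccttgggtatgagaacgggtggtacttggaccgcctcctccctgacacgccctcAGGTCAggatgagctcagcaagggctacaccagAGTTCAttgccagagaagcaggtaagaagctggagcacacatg
Slc27a2: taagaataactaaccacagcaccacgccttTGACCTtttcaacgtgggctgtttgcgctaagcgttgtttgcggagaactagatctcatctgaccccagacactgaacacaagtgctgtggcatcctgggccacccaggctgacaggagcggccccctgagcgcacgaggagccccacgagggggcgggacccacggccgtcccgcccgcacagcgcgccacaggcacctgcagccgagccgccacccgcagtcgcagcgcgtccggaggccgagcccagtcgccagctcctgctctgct
In Gpr55 the match is TGAACT, the reverse complement of AGTTCA, with its first base at -15 from the start. Sectm1b holds AGGTCA at -26 and AGTTCA at 7 past the start, and Slc27a2 holds TGACCT, the reverse complement of AGGTCA, at -220. Across all windows AGGTCA was in 16.3% and AGTTCA in 14.0%. A match of these letters is a description of the window and says nothing of receptor binding. The windows of Gpr55, Plekha6 and Sectm1b held 4, 4 and 6 CpG, near the median of 7 over all windows, that of Cnksr1 held 13, and those of Gpc3, Anpep and Slc27a2 held 30, 28 and 25.

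Depth and the check of the targeted genes concern all results. Library totals ran from 21064856 to 25920131 counts, so that 3 counts correspond to 0.118 to 0.137 CPM (counts scaled to library size, here with TMM factors), for counting error only. Rarg was lower in Rar-deleted ovaries than in controls without passing the test (log2 fold change -0.64, SE 0.14, edgeR quasi-likelihood adjusted p = 0.190), and Rara (0.11, SE 0.18) and Rarb (-0.31, SE 0.21) did not pass either. Counts over whole genes do not isolate the floxed exons and so check the deletion only in part. Nr5a1, whose promoter drives the Cre, had a log2 fold change of 0.68 (SE 0.21, edgeR adjusted p = 0.450). Dmrt1 had 0 and 5 counts in the Dmrt1 het Rar mutants and 0 counts in each of the other 8 libraries, which gives no check of that allele. Granulosa cell markers summed to 2777 to 5596 CPM in Rar-deleted ovaries, against 3428 to 7853 CPM in controls, and oocyte markers to 242 to 704 CPM in Rar-deleted ovaries, against 521 to 782 CPM in controls, so the libraries carry RNA of both. The titles of the samples hold numbers, and the 4 libraries numbered under 7800 (both Dmrt1 het Rar mutants, Rar mutant 1 and control 1) differed widely from the 6 numbered higher. In a fit with the genotype groups as terms, 11.7% of 20570 genes were called between these sets. For the 10 genes, fold changes within each set are given beside the results. Those of the lower-numbered set rest on control 1 alone as the control. Only that set holds Dmrt1 het Rar mutants, so the values of the sets compare different genotypes and do not replicate each other. Calls over gene lists are edgeR's unless DESeq2 is named.

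Of the 10 genes, 9 were lower in every Rar-deleted library than in every control, and Prr15l overlapped between the groups. Over all 18954 genes tested, 1.08% were lower without overlap. In the fit of all Rar-deleted ovaries against controls 9 of the 10 genes were called at an adjusted p under 0.05, all but Prr15l. With a title-number term 7 were called, and leaving out 1 library gave 2 to 9, with 2 without either Dmrt1 het Rar mutant, without Rar mutant 2 or without control 4. This contrast chose the genes, so nothing is read from that count, and 0.111% of all genes were called (17 or 0.0897% lower, and 4 or 0.0211% higher). DESeq2 called all 10 and 0.745% of all genes. The log2 fold changes of the 10 ran from -3.88 (Gpr55) to -1.08 (Gpc3), while the median of all genes tested was 0.00. In the 4 lower-numbered libraries all 3 Rar-deleted libraries lay below control 1 for 10 of 10 genes, as for 22.6% of all genes tested. In the 6 higher-numbered libraries both Rar mutants lay below all 4 controls for 10 of 10, as for 12.3% of all genes. These counts also come from the values that chose the genes. In bulk tissue, fewer cells of a type and less RNA per cell cannot be told apart.

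**Figure D1:**
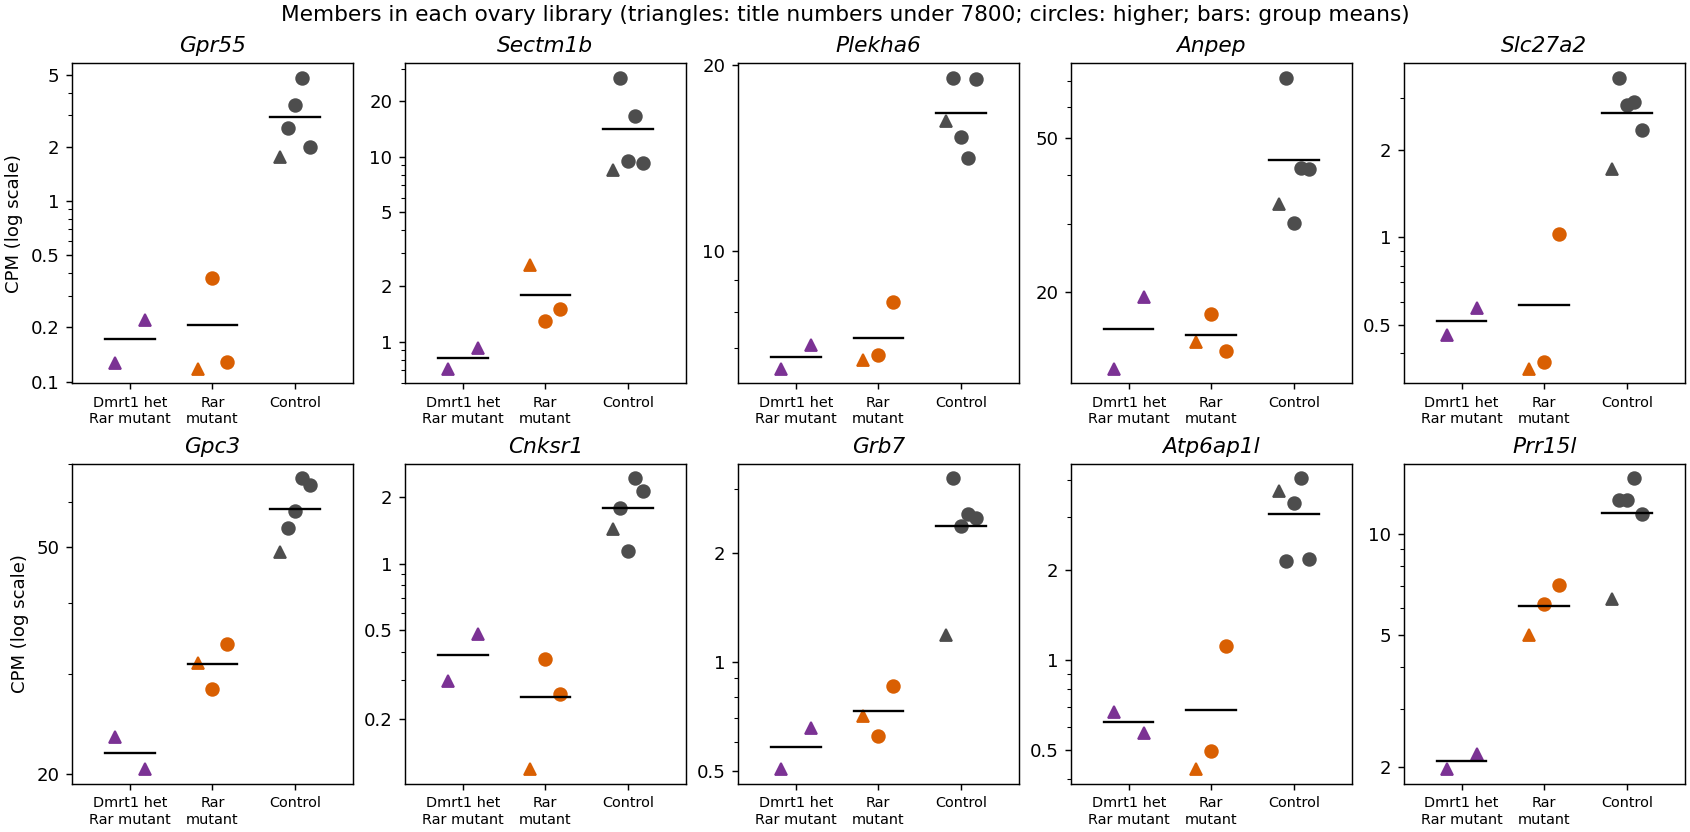
CPM (log scale) of each of the 10 genes in every library, with Dmrt1 het Rar mutants, Rar mutants and controls from left to right. Triangles are the 4 libraries with title numbers under 7800, circles the 6 with higher numbers, and bars the group means; 9 of the 10 genes show no overlap between Rar-deleted and control libraries, and in Prr15l control 1 lies among the Rar mutants.

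The receptor Gpr55 (ENSMUSG00000049608, chromosome 1: 85938318 to 85961007 in GRCm38, minus strand) was near the limit of detection in every Rar-deleted ovary. It had 3 and 5 counts in Dmrt1 het Rar mutants, 3, 9 and 3 counts in Rar mutants, and 43, 64, 75, 123 and 50 counts in controls. All Rar-deleted libraries together gave 23 counts and all controls 355 counts. In CPM these were 0.126 and 0.219, then 0.118, 0.373 and 0.129, and in controls 1.76, 2.54, 3.43, 4.84 and 2.01. The highest Rar-deleted library, Rar mutant 2, stood 4.71-fold below the lowest control, control 1, the widest gap of the 10 genes. Means were 0.193 ± 0.109 CPM in Rar-deleted ovaries, against 2.92 ± 1.25 CPM in controls (SD, n = 5 each), a log2 fold change of -3.88 (SE 0.42). It was -3.64 in the higher-numbered libraries alone and -3.48 in the lower-numbered ones. The spread of Gpr55 over the Rar-deleted libraries (coefficient of variation 56.4%) was close to what counting alone gives at this depth (46.6%), so differences among those 5 ovaries were not detectable. In controls the spread was 42.9%, against 11.9% from counting.

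Sectm1b (ENSMUSG00000039364, chromosome 11: 121053458 to 121063569, minus strand) had the second largest fold change of the 10. Dmrt1 het Rar mutants had 17 and 21 counts (0.715 and 0.921 CPM), Rar mutants 66, 31 and 35 counts (2.60, 1.29 and 1.50 CPM), and controls 207, 675, 208, 424 and 230 counts (8.47, 26.8, 9.52, 16.7 and 9.24 CPM). Both Dmrt1 het libraries lay below all Rar mutants, and controls 2 and 4 stood well above the other 3. Means were 1.40 ± 0.734 CPM in Rar-deleted ovaries, against 14.1 ± 7.82 CPM in controls (SD, n = 5 each), with a log2 fold change of -3.32 (SE 0.43). That fold change was -3.48 in the higher-numbered libraries and -2.57 in the lower-numbered ones. Sectm1a, the relative that lies 3.84 kb away, had 1.47 ± 0.608 CPM in Rar-deleted ovaries, against 1.91 ± 0.612 CPM in controls, a log2 fold change of -0.37 (SE 0.31) that did not pass the test (edgeR adjusted p = 0.687). Counting could divide reads between such close relatives, so the level of each is uncertain to that extent. Cd7, which encodes the receptor of the family in T and NK cells, had 2.14 ± 0.653 CPM in Rar-deleted ovaries, against 2.95 ± 0.929 CPM in controls (log2 fold change -0.46, SE 0.30, edgeR adjusted p = 0.653). The summed level of the T and NK cell markers was 6.30 to 10.2 CPM in Rar-deleted ovaries, against 6.28 to 9.70 CPM in controls, with 0 of 5 tested markers called.

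Gpc3 (ENSMUSG00000055653, chromosome X: 52272426 to 52613950, minus strand) was the most abundant of the 10 and had the smallest fold change. Its counts were 553 and 466 in Dmrt1 het Rar mutants, 798, 679 and 790 in Rar mutants, and 1199, 1362, 1262, 1679 and 1598 in controls. The 3 groups formed 3 separate ranges, 20.4 to 23.2 CPM, 28.2 to 33.9 CPM and 49.1 to 66.0 CPM. Over all Rar-deleted ovaries the mean was 27.4 ± 5.58 CPM, against 58.2 ± 7.03 CPM in controls (SD, n = 5 each; log2 fold change -1.08, SE 0.16). Within the title-number sets the log2 fold change was -0.97 in both, although only the lower-numbered set holds Dmrt1 het libraries and it has control 1 alone. The other glypicans, syndecans and their modifying enzymes showed no such direction: of 13 tested 0 were called, 6 had a negative fold change and the median was 0.12. Gpc4, a related glypican gene, had 131 ± 12.2 CPM in Rar-deleted ovaries, against 107 ± 6.04 CPM in controls (log2 fold change 0.30, edgeR adjusted p = 0.527). The most abundant of that list were Sulf2 (log2 fold change 0.12), Hspg2 (0.31) and Ext1 (-0.17), and none of them was called.

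Anpep (ENSMUSG00000039062, chromosome 7: 79821803 to 79861059, minus strand) had 301 and 441 counts in Dmrt1 het Rar mutants, 376, 422 and 327 counts in Rar mutants, and 822, 1802, 659, 1062 and 1033 counts in controls. In CPM this was 12.7 and 19.3, then 14.8, 17.5 and 14.0, and in controls 33.6, 71.6, 30.2, 41.8 and 41.5. The Rar-deleted ovaries lay close together, and control 2 stood far above the other controls. Means were 15.7 ± 2.71 CPM in Rar-deleted ovaries, against 43.7 ± 16.4 CPM in controls (SD, n = 5 each), with a log2 fold change of -1.48 (SE 0.23). It was -1.56 in the higher-numbered libraries alone and -1.11 in the lower-numbered ones. Of 13 other membrane ectopeptidases tested 0 were called, 7 had a negative fold change, and the median was -0.03. Ece1, Erap1 and Enpep, which were the most abundant of that list, had log2 fold changes of 0.48, 0.13 and -0.09.

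Slc27a2 (ENSMUSG00000027359, chromosome 2: 126552407 to 126588243, plus strand) had 11 and 13 counts in Dmrt1 het Rar mutants, 9, 9 and 24 counts in Rar mutants, and 42, 89, 62, 74 and 58 counts in controls. Rar mutant 3 was the highest Rar-deleted library at 1.03 CPM, and control 1 the lowest control at 1.72 CPM. Means were 0.558 ± 0.277 CPM in Rar-deleted ovaries, against 2.67 ± 0.681 CPM in controls (SD, n = 5 each), with a log2 fold change of -2.25 (SE 0.33). Within the higher and the lower title numbers it was -2.05 and -1.89. The other genes of fatty acid transport and acyl-CoA synthesis showed no common direction: 0 of 18 tested were called, 9 were negative and the median was -0.00. Slc27a1, its relative with 101 ± 26.2 CPM in Rar-deleted ovaries, against 114 ± 16.2 CPM in controls, had a log2 fold change of -0.18 (SE 0.19). Acsbg1, Acsl4 and Cpt1a, the most abundant genes of the list, had -0.06, 0.96 and 0.19 without a call.

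The adaptor Grb7 (ENSMUSG00000019312, chromosome 11: 98446394 to 98455373, plus strand) had 12 and 15 counts in Dmrt1 het Rar mutants, 18, 15 and 20 in Rar mutants, and 29, 81, 52, 65 and 62 in controls. The highest Rar-deleted library, Rar mutant 3 at 0.858 CPM, stood 1.38-fold below control 1, which at 1.19 CPM was far below the other controls (2.38 to 3.22 CPM). Means were 0.670 ± 0.129 CPM in Rar-deleted ovaries, against 2.37 ± 0.736 CPM in controls (SD, n = 5 each; log2 fold change -1.81, SE 0.28). That value was -1.84 in the higher-numbered libraries and -0.92 in the lower-numbered ones. Cnksr1 (ENSMUSG00000028841, chromosome 4: 134228041 to 134238399, minus strand) had 7 and 11 counts in Dmrt1 het Rar mutants, 3, 9 and 6 in Rar mutants, and 35, 45, 25, 62 and 53 in controls. The highest Rar-deleted library, Dmrt1 het Rar mutant 2 at 0.482 CPM, stood 2.37-fold below the lowest control, control 3 at 1.14 CPM. Means of Cnksr1 were 0.305 ± 0.136 CPM in Rar-deleted ovaries, against 1.79 ± 0.520 CPM in controls (SD, n = 5 each; log2 fold change -2.53, SE 0.36). Within the higher and the lower title numbers the value of Cnksr1 was -2.56 and -2.26.

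Among 19 tested adaptors and receptors of ERBB and RAS signalling 0 were called, 6 were negative and the median log2 fold change was 0.07. The most abundant were Grb14 (-0.22), a relative of Grb7, Gab2 (0.12) and Shc1 (0.07). Erbb2, which encodes a receptor that binds GRB7 and lies 8.68 kb from Grb7, had 23.6 ± 3.81 CPM in Rar-deleted ovaries, against 34.8 ± 5.14 CPM in controls (log2 fold change -0.55, SE 0.15, edgeR adjusted p = 0.374); it was singled out after its values were seen. Cnksr3, a relative of Cnksr1, had 13.8 ± 1.57 CPM in Rar-deleted ovaries, against 13.7 ± 1.26 CPM in controls.

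Plekha6 (ENSMUSG00000041757, chromosome 1: 133164210 to 133303435, plus strand) had the least spread of the 10 genes over all Rar-deleted libraries, while over controls that of Gpc3 was smaller (12.1%). Its CPM was 6.47 and 7.06 in Dmrt1 het Rar mutants, 6.69, 6.81 and 8.28 in Rar mutants, and 16.2, 19.1, 15.3, 14.2 and 19.0 in controls. The coefficient of variation was 10.1% over Rar-deleted libraries, against 7.71% from counting, and 13.2% over controls. Means were 7.06 ± 0.714 CPM in Rar-deleted ovaries, against 16.8 ± 2.21 CPM in controls (SD, n = 5 each; log2 fold change -1.24, SE 0.14), and the value was -1.16 among higher and -1.27 among lower title numbers. Gm19461, annotated on the opposite strand within Plekha6, had 0.516 ± 0.131 CPM in Rar-deleted ovaries, against 1.43 ± 0.166 CPM in controls, a similar log2 fold change of -1.45 (SE 0.24). The kit keeps strand, but whether counting used it is not given in the sources used here, so reads of Plekha6 and of this antisense gene cannot be told apart with certainty. Gm19461 was singled out after its values were seen.

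Atp6ap1l (ENSMUSG00000078958, chromosome 13: 90883433 to 90905355, minus strand) had 16 and 13 counts in Dmrt1 het Rar mutants, 11, 12 and 26 in Rar mutants, and 90, 54, 73, 103 and 54 in controls. Unlike most of the 10 genes it was high in control 1 (3.68 CPM), where control 4 alone was higher (4.05 CPM), while controls 2 and 5 were lowest (2.15 and 2.17 CPM). Means were 0.658 ± 0.271 CPM in Rar-deleted ovaries, against 3.08 ± 0.877 CPM in controls (SD, n = 5 each; log2 fold change -2.22, SE 0.31). Its value was -1.85 in the higher-numbered libraries and -2.71 in the lower-numbered ones. Atp6ap1, the proton pump subunit it is named for, had 131 ± 18.1 CPM in Rar-deleted ovaries, against 122 ± 10.5 CPM in controls (log2 fold change 0.10).

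Prr15l (ENSMUSG00000047040, chromosome 11: 96928104 to 96937830, plus strand) was lower in both Dmrt1 het Rar mutants than in any Rar mutant, a difference that edgeR did not call. Dmrt1 het Rar mutants had 47 and 50 counts (1.98 and 2.19 CPM), Rar mutants 127, 149 and 164 counts (4.997, 6.18 and 7.04 CPM), and controls 156, 318, 277, 374 and 286 counts (6.38, 12.6, 12.7, 14.7 and 11.5 CPM). Control 1 overlapped the Rar mutants, and both Dmrt1 het libraries lay far below them. Means were 4.48 ± 2.30 CPM in Rar-deleted ovaries, against 11.6 ± 3.13 CPM in controls (SD, n = 5 each; log2 fold change -1.37, SE 0.36), with -0.96 among higher and -1.06 among lower title numbers. In the 3-group fit its log2 fold change from controls was -2.47 (SE 0.34) in Dmrt1 het Rar mutants and -0.93 (SE 0.26) in Rar mutants. Other annotation overlaps Prr15l, so its counts are uncertain to that extent.

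The difference between the 2 Cre-positive genotypes is not the value the genes were chosen on, but both groups were in view when they were chosen, so its p-values are not independent of that choice. Under edgeR's quasi-likelihood test 0 of the 10 genes were called between Dmrt1 het Rar mutants and Rar mutants, as were 0% of 20570 genes, although 3467 genes had an unadjusted p under 0.05. In this fit the largest difference was that of Prr15l, with 2.08 ± 0.153 CPM in Dmrt1 het Rar mutants (SD, n = 2) and 6.07 ± 1.02 CPM in Rar mutants (SD, n = 3), a log2 fold change of -1.54 (SE 0.34, edgeR adjusted p = 0.179). DESeq2 called 480 genes (1.99%), and of the 10 genes it called Prr15l alone (-1.55, DESeq2 adjusted p = 0.00523). Gpc3 had 21.8 ± 1.99 CPM in Dmrt1 het Rar mutants and 31.2 ± 2.87 CPM in Rar mutants (log2 fold change -0.51, SE 0.17, edgeR adjusted p = 0.231), and Sectm1b 0.818 ± 0.146 CPM in Dmrt1 het Rar mutants and 1.80 ± 0.703 CPM in Rar mutants (-1.13, SE 0.58, edgeR adjusted p = 0.340). In these 3 genes both Dmrt1 het libraries lay below all Rar mutants, as did 19.5% of all genes. The other 7 had log2 fold changes from -0.33 (Grb7) to 0.63 (Cnksr1), with edgeR adjusted p from 0.550 to 0.952. The order of the genes depended on the title numbers: with a term for them Cnksr1 (1.11, SE 0.60) and Sectm1b (-1.10, SE 0.69) lay as far from 0 as Prr15l, and in lower-numbered libraries alone farther (1.67 and -1.66).

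Both Dmrt1 het libraries carry lower title numbers, as does 1 of the 3 Rar mutants, so genotype and title number are partly mixed. With a term for the title-number sets the difference of Prr15l was -1.05 (SE 0.25, edgeR adjusted p = 0.361). Against Rar mutant 1 alone, with lower-numbered libraries only, it was -1.26. Markers of the ovarian surface epithelium had values of the same sign: 13 of 14 had a negative fold change between Dmrt1 het Rar mutants and Rar mutants, with a median of -0.94 against -0.01 over all genes. Their summed level was 363 to 402 CPM in Dmrt1 het Rar mutants and 555 to 660 CPM in Rar mutants. Under edgeR 0 of the 14 were called, and under DESeq2 3 were called lower. Other cell marker lists also differed between these groups. Of 6 erythroid markers 6 were negative (median -1.81), and of 6 smooth muscle markers 5 were (median -0.87). Of 12 granulosa markers 1 was negative (median 0.82). The part of any of these lists in the difference of Prr15l was not tested.

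**Figure D2:**
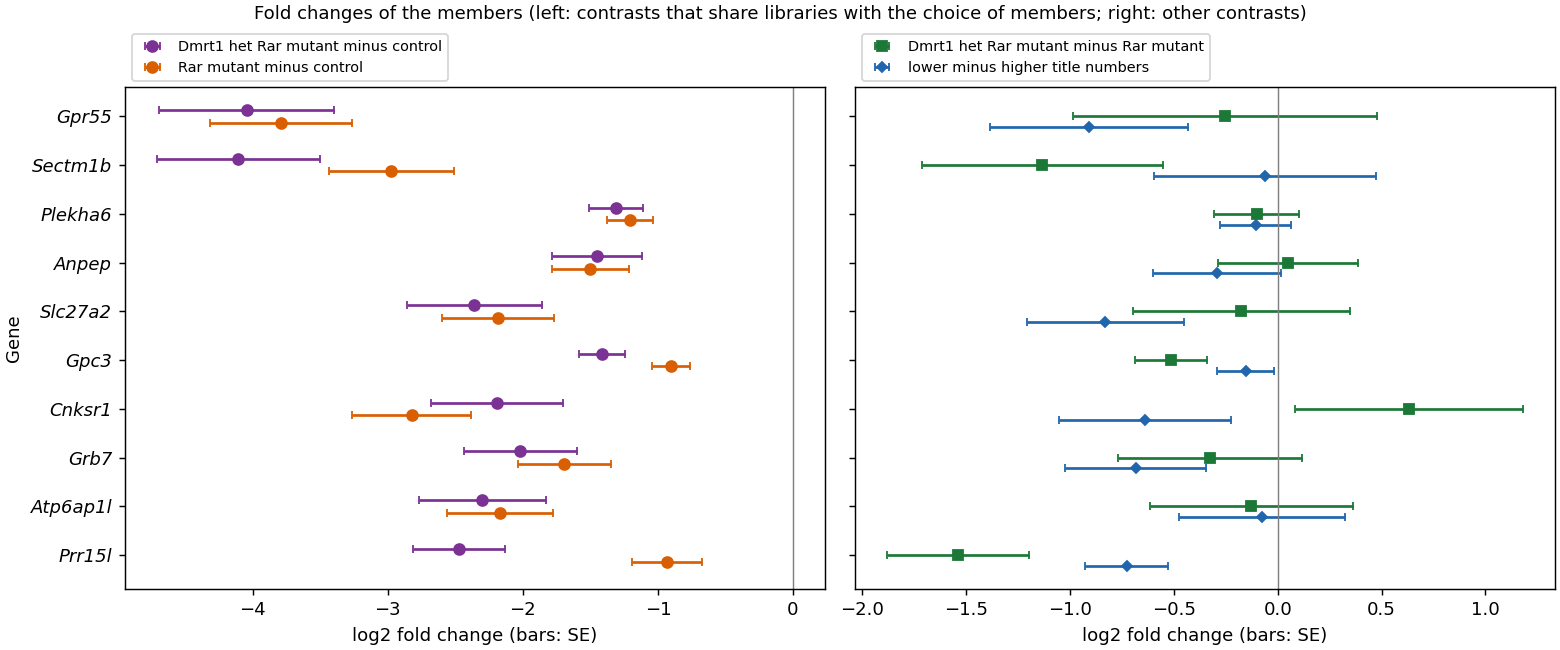
Log2 fold changes of the 10 genes with their SE. The left panel gives Dmrt1 het Rar mutants and Rar mutants against controls, which share control libraries; the right panel gives Dmrt1 het Rar mutants minus Rar mutants (squares) and lower minus higher title numbers (diamonds), where Prr15l has the lowest square at -1.54.

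The difference between the title-number sets was likewise not the value the genes were chosen on, although the same libraries were in view. In a fit with the 3 genotype groups as terms, Prr15l was lower in the lower-numbered libraries (log2 fold change -0.73, SE 0.20, edgeR adjusted p = 0.0444), and it was the only one of the 10 called. Among all genes 4.02% were called lower and 7.72% higher. Leaving out 1 library at a time kept the call in 1 of 10 fits, with edgeR adjusted p from 0.0460 to 0.435, and the value was closest to 0 without control 1 (-0.37). The other 9 genes all had negative values that did not pass, from -0.91 (Gpr55, SE 0.48) to -0.06 (Sectm1b, SE 0.53). Control 1, a lower-numbered library, was the lowest control for 6 of the 10 genes, against 31.8% of all genes. The highest control was control 2 for 5 of the 10 genes (Sectm1b, Plekha6, Anpep, Slc27a2 and Grb7) and control 4 for the other 5, against 13.6% and 15.7% of all genes. Among the Rar-deleted ovaries Rar mutant 3 was the highest library for 6 of the 10 genes, against 27.3% of all genes.

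Per length, the 10 genes spanned a wide range of levels. In Rar-deleted ovaries the order of mean FPKM was Gpc3 (10.2), Anpep (3.78), Prr15l (1.14), Plekha6 (0.562), Atp6ap1l (0.514), Sectm1b (0.505), Grb7 (0.199), Slc27a2 (0.149), Cnksr1 (0.108) and Gpr55 (0.0516). In controls it was Gpc3 (21.5), Anpep (10.5), Sectm1b (5.06), Prr15l (2.93), Atp6ap1l (2.39), Plekha6 (1.33), Gpr55 (0.778), Slc27a2 (0.706), Grb7 (0.700) and Cnksr1 (0.633). In Rar-deleted ovaries only Gpc3 and Anpep, and Anpep and Prr15l, were neighbours whose libraries did not overlap. In controls this held only for Gpc3 and Anpep and for Atp6ap1l and Plekha6. Sectm1b was the sixth in Rar-deleted ovaries and the third in controls, and Gpr55 was the lowest of the 10 in Rar-deleted ovaries but not in controls. In controls the mean FPKM of Gpc3 was above that of 87.3% of 24217 genes, and that of Cnksr1 above 32.8%.

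**Figure D3:**
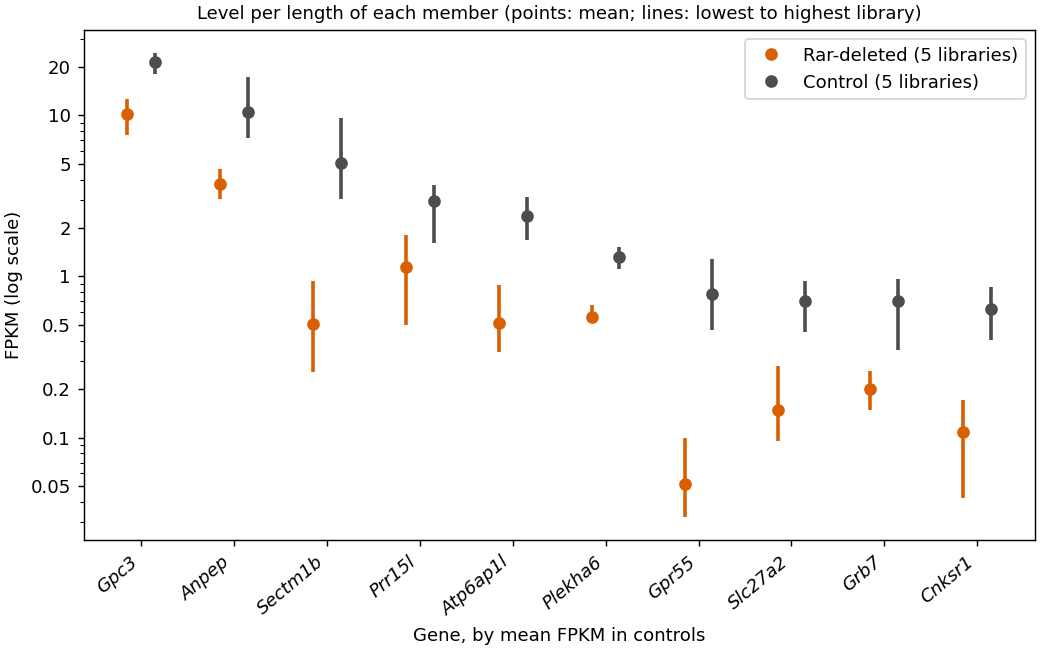
Mean FPKM (log scale) of each gene in Rar-deleted ovaries (orange, left) and controls (grey, right), with lines from the lowest to the highest of 5 libraries. Genes run by their control mean, from Gpc3 at 21.5 to Cnksr1 at 0.633, and Sectm1b and Gpr55 have the widest separation.

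Epithelial genes outside the 10 also had mostly negative fold changes. Of 21 tested genes of epithelial adhesion and junctions, 20 had a negative log2 fold change in Rar-deleted ovaries against controls and 2 fell: St14, which encodes the membrane protease matriptase, and Ocln, the gene of occludin in tight junctions. The median was -0.83, against 0.00 over all genes, and their summed level was 82.1 to 124 CPM in Rar-deleted ovaries, against 126 to 211 CPM in controls. St14 averaged 1.03 ± 0.138 CPM in Rar-deleted ovaries, against 5.32 ± 2.23 CPM in controls (log2 fold change -2.36, SE 0.31, edgeR adjusted p = 0.0161). Ocln averaged 1.28 ± 0.283 CPM in Rar-deleted ovaries, against 3.65 ± 0.778 CPM in controls (-1.50, SE 0.23, edgeR adjusted p = 0.0376). The calls were 2 of 21, against 0.111% of all genes. Under DESeq2 6 of the list were called lower (St14, Ocln, Epcam, Cdh1, Marveld3 and Grhl3), against 0.745% of all genes, and with a title-number term in edgeR 3 were, against 0.211%. Epcam, a cell adhesion gene of epithelia, had 4.05 ± 2.31 CPM in Rar-deleted ovaries, against 24.9 ± 11.8 CPM in controls (-2.61, SE 0.47, edgeR adjusted p = 0.0744). The E-cadherin gene Cdh1 had 5.85 ± 1.76 CPM in Rar-deleted ovaries, against 15.5 ± 4.87 CPM in controls (-1.40, SE 0.27, edgeR adjusted p = 0.106). Epcam and Cdh1 were singled out after their values were seen. Esrp2 was the gene of the list with a positive value, 0.57 (SE 0.29). Cdh16, also on the list, was at 0 counts in 2 libraries. The list was chosen with results of these libraries known, so its count is no independent evidence, and its part in the levels of the 10 genes was not tested.

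**Figure D4:**
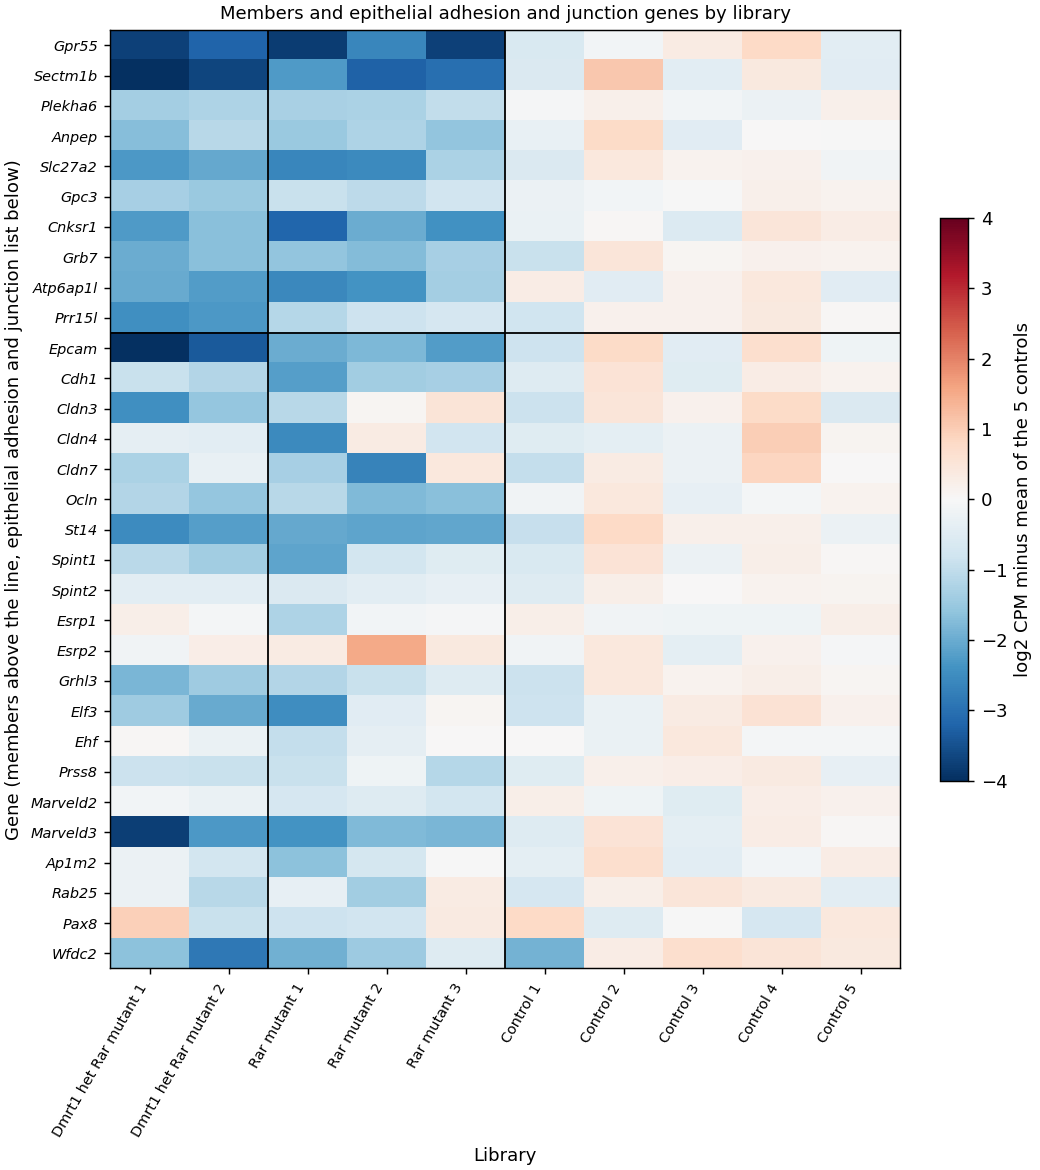
Log2 CPM minus the mean of the 5 controls, by library, for the 10 genes (above the line) and the 21 tested genes of epithelial adhesion and junctions (below), with blue for lower and red for higher. Dmrt1 het Rar mutants, Rar mutants and controls run from left to right; the 10 genes and St14, Epcam, Ocln and Marveld3 are blue in all Rar-deleted libraries, while 9 of the 21 listed genes have a value above the control mean in at least 1 Rar-deleted library, the highest in Esrp2.

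Markers of the ovarian surface epithelium had a smaller median in the same comparison. Of 14 tested 0 were called, 13 were negative and the median was -0.25, with a summed level of 363 to 660 CPM in Rar-deleted ovaries, against 527 to 855 CPM in controls. Its most abundant genes Aldh1a2, Wt1 and Upk3b had log2 fold changes of 0.05, -0.17 and -0.39. The smaller median did not hold in each genotype. Against controls, the adhesion and junction list had a median of -0.73 in Rar mutants and -0.94 in Dmrt1 het Rar mutants. That of the surface epithelium list was -0.12 in Rar mutants and -0.95 in Dmrt1 het Rar mutants. In the latter DESeq2 called 4 of the 14 lower, against 1.16% of all genes. Between the title-number sets 6 of these 14 fell in the lower numbers (Krt7, Krt8, Krt18, Krt19, Upk3b and Cldn15) and Muc16 rose, where 4.02% of all genes were called lower and 7.72% higher. The keratin gene Krt8, for example, had a log2 fold change of -1.11 (SE 0.16, edgeR adjusted p = 0.00579). Of 11 tested genes known to respond to retinoic acid 0 were called in Rar-deleted ovaries against controls, 8 were negative and the median was -0.33. DESeq2, run without the filter on low counts, called 3 of the list lower (Lrat, Cyp26a1 and Hsd17b2), against 0.745% of all genes. With a title-number term edgeR called 1 lower, against 0.211% of all genes. The most abundant, Rai14, Tgm2 and Dhrs3, had 0.20, 0.12 and -0.12. Lrat, which encodes the enzyme that stores vitamin A as esters, had 5.99 ± 2.24 CPM in Rar-deleted ovaries, against 24.6 ± 12.8 CPM in controls (-2.04, SE 0.38, edgeR adjusted p = 0.0804). Cyp26a1, whose enzyme breaks down retinoic acid, had 0.0428 ± 0.0310 CPM in Rar-deleted ovaries, against 0.585 ± 0.211 CPM in controls and did not pass the filter on low counts in this fit. Lrat and Cyp26a1 were singled out after their values were seen.

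The close relatives and partners of the 10 genes showed no common direction. Of 24 tested relatives by name or sequence family 0 were called by edgeR and 1 by DESeq2 (Plekhb1), 10 were negative and the median was 0.04. The most abundant were Grb14 (-0.22), Atp6ap1 (0.10) and Gpc4 (0.30). The lowest was Plekhb1, with 2.53 ± 0.462 CPM in Rar-deleted ovaries, against 6.05 ± 1.49 CPM in controls (-1.25, SE 0.22, edgeR adjusted p = 0.0602), singled out after its values were seen. Of 19 tested receptors and enzymes of endocannabinoids and lysophospholipids, the field of Gpr55, 0 were called, 11 were negative and the median was -0.00. Abhd12, Ddhd1 and Pla2g4a, the most abundant of them, had -0.23, 0.23 and 0.09.

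For the other cells of the ovary, edgeR called 0 markers in the same comparison, and DESeq2 called 2 lower, the endothelial gene Cldn5 (-0.74) and the adipocyte gene Car3 (-2.30), against 0.745% of all genes. The median log2 fold change was -0.14 for 12 granulosa, 0.01 for 8 theca, -0.01 for 7 corpus luteum and -0.41 for 12 oocyte markers. It was -0.15 for 8 endothelial, 0.11 for 6 smooth muscle, -0.03 for 8 macrophage, -0.09 for 5 T and NK cell, 0.63 for 5 erythroid, -2.43 for 4 adipocyte and -0.16 for 5 oviduct markers. Oocyte markers were negative in 11 of 12 and endothelial markers in 7 of 8, and the other lists were mixed or small. Adipocyte markers summed to 7.47 to 36.2 CPM in Rar-deleted ovaries, against 10.5 to 66.6 CPM in controls, and oviduct markers to 8.22 to 36.8 CPM in Rar-deleted ovaries, against 9.16 to 11.1 CPM in controls. Theca markers summed to 673 to 6989 CPM in Rar-deleted ovaries, against 735 to 1051 CPM in controls. The highest theca sum and the highest oviduct sum each came from a higher-numbered Rar mutant. In Dmrt1 het Rar mutants these sums reached at most 1144 CPM for theca and 15.2 CPM for oviduct markers. By genotype against controls, the granulosa median was -0.55 in Rar mutants, with 12 of 12 negative. In Dmrt1 het Rar mutants it was 0.19, with 4 of 12 negative.

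The genes whose pattern over the 10 libraries was most like the mean of the 10 genes included St14, Wnt9a, Pkp3 and Marveld3. Likeness was the root mean square distance between standardised log2 CPM profiles over 10 libraries and 18944 other genes, where the median gene stood at 1.40. St14 stood closest at 0.235, Wnt9a at 0.263, Pkp3 at 0.281 and Marveld3 at 0.283. The 10 genes themselves, each part of that mean, ran from 0.240 (Grb7) to 0.505 (Prr15l). Because the 10 were chosen as low in Rar-deleted ovaries, genes with the same split stand near their mean. The likeness is thus a description and no independent evidence of a link. St14 was nearest to Sectm1b alone (0.258). Wnt9a, a gene of a secreted WNT ligand, had 3.87 ± 1.01 CPM in Rar-deleted ovaries, against 8.21 ± 1.10 CPM in controls. Pkp3, which encodes the desmosome protein plakophilin 3, had 0.227 ± 0.0258 CPM in Rar-deleted ovaries, against 0.840 ± 0.325 CPM in controls. The tight junction gene Marveld3 had 0.268 ± 0.148 CPM in Rar-deleted ovaries, against 1.67 ± 0.541 CPM in controls.

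In the genome the 10 genes lie on several chromosomes, and their neighbours showed no such direction. Grb7, Prr15l and Sectm1b are on chromosome 11 with Rara, at 472 kb, 1990 kb and 22079 kb from it. Within 100 kb of the 10 genes 53 other genes were tested, of which 0 were called and 30 were negative, with a median log2 fold change of -0.13. They ran from -1.45 (Gm19461, within Plekha6) to 4.45 (Ren1, 47.1 kb from Plekha6). Ren1, which encodes renin, had 33.8 ± 57.1 CPM in Rar-deleted ovaries, against 1.54 ± 1.05 CPM in controls, so that its spread exceeds its mean, and it was not called (edgeR adjusted p = 0.484). Next to Slc27a2, the histidine decarboxylase gene Hdc had 60.5 ± 52.8 CPM in Rar-deleted ovaries, against 25.7 ± 6.65 CPM in controls (1.24, SE 0.58). The nearest tested genes on either side of the others had values from -0.46 (Cd7) to 0.35 (Ppp1r15b on the other side of Plekha6). Among these were Itm2c beside Gpr55 (-0.19), Mesp2 and Ap3s2 beside Anpep (-0.13 and -0.09), Atp8b4 on the other side of Slc27a2 (-0.22), and Cep85 and Zfp593 beside Cnksr1 (0.17 and 0.28). Mien1 beside Grb7 had -0.29, Rps23 beside Atp6ap1l -0.25, and Cdk5rap3 and Sp2 beside Prr15l -0.30 and 0.07. Gpc3 had no tested gene within 100 kb.

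**Figure D5:**
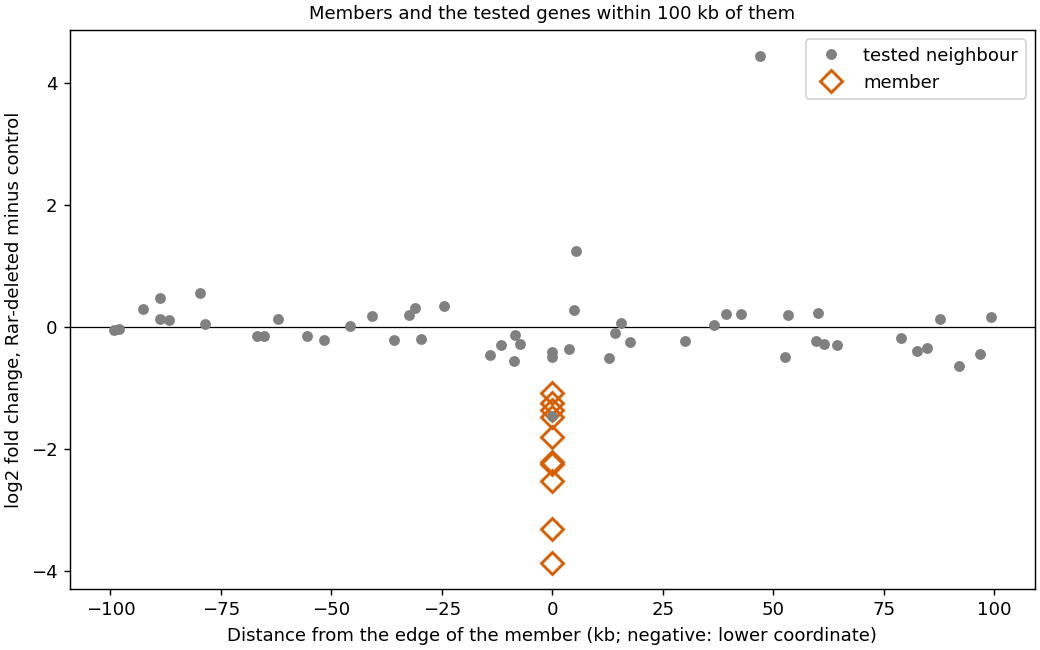
Log2 fold change in Rar-deleted ovaries against controls for the 10 genes (open diamonds, placed at 0) and for 53 tested genes within 100 kb of them (grey points), by distance in kb from the edge of the gene. Nearly all grey points lie near 0, apart from Ren1 at 4.45, Hdc at 1.24 and the overlapping gene Gm19461 at -1.45.

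The authors' deposited table of differential expression lists 185 genes, 49 lower and 136 higher, and its mean counts match the 5 controls and 3 Rar mutants. The authors' deposited table holds 8 of the 10 genes, all with negative log2 fold changes. In the authors' deposited table these were -2.14 for Gpr55, -1.91 for Sectm1b, -1.76 for Cnksr1, -1.50 for Atp6ap1l, -1.47 for Slc27a2, -1.21 for Anpep and Grb7, and -1.09 for Plekha6. They were smaller in size than those computed here for Rar mutants against controls, where Gpr55 had -3.79 and Sectm1b -2.97. Whether shrinkage was used for the deposited values was not checked, so the sizes may not be like measures. By p-value within the authors' deposited table these 8 genes ranked from 5 (Gpr55) to 91 (Grb7). It does not list Gpc3 or Prr15l, which had the smallest differences between Rar mutants and controls of the 10 here, at -0.90 (SE 0.14) and -0.93 (SE 0.26). In the 3-group fit 0 of the 10 genes were called between Rar mutants and controls under edgeR, where 0.00972% of all genes were, and 9 were called under DESeq2, where 1.48% were. Between Dmrt1 het Rar mutants and controls edgeR called 1 of the 10 (Gpc3), against 0.0194% of all genes (0.00486% lower and 0.0146% higher), and DESeq2 called 10, against 1.16%. These comparisons share their controls and chose the genes, so nothing is read from these counts.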

How the data were processed

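Per the labels, whole ovaries were homogenised in Trizol and polyA RNA libraries were made with a stranded kit. Per the submitters' processing notes, Trimmomatic 0.32, STAR 2.4.2a, SAMtools 1.0 and DESeq2 1.12.3 were used on GRCm38 (mm10); the counting tool, annotation release and strand setting are not given in the sources used here. The authors deposited raw counts per gene. The FPKM values deposited by the authors carry median-of-ratios size factors: the ratio of count to FPKM between libraries lay within 0.0698% of those factors over 6800 genes. Per the file headers, columns of the authors' deposited results table are the mean of normalised counts (treated as a signal), log2 fold changes and their standard errors, the Wald score, and raw and adjusted p-values. Its mean counts lie within 0.0348% of those of 5 controls and 3 Rar mutants.

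Counts were tested in R 4.3.3 with edgeR 4.0.16 (quasi-likelihood test, two-sided, TMM, filterByExpr, robust dispersion), with Benjamini-Hochberg adjustment over all genes tested and calls at an adjusted p under 0.05. Each SE is approximate: the log2 fold change over the root of F. Alternatives were DESeq2 1.42.0 without shrinkage or independent filtering, other size factors, no filter, no robust option, a replicate block, a title-number term, the title-number sets alone and leaving out each library. The fit on lower-numbered libraries alone was chosen after seeing the data. In simulated data the Rar-deleted comparison recovered 70% of genes changed 2-fold and 93% changed 4-fold, with 5.23% false calls. The comparison of the Cre-positive genotypes recovered 28% and 84%, with 8.20% false. The simulated data took their spread from a fit with a title-number term and held no difference between those sets. The main fits have no such term, so these shares do not give the recovery or false calls in the real libraries. Likeness used log2 CPM with a prior count of 2. No 2 libraries of a group were duplicates (14 pairs). Positions are from GENCODE M21, which matched 24038 of 24306 identifiers and all 10 genes.

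The 10 genes and all gene lists were chosen with earlier results of these data known. Named besides the 10 are, by rule, the targeted genes, called genes of each list or else its most abundant ones, nearest neighbours, and the genes most alike in profile. Predicted genes were counted only, unless said. Some genes that meet the rule are not reported here.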

Additional observations from a re-analysis of the deposited data

Results flagged for a closer look

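Anpep in control 2 stood apart from the other controls at 71.6 CPM, where the other 4 controls had 30.2 to 41.8 CPM. Its gap to the next control was 0.720 of the range of the 5 controls, above the limit of 0.710 for 5 samples. For each of the 10 genes the 5 Rar-deleted libraries and the 5 controls were checked, 20 groups in all, and this was the 1 group past the limit; chance gives about 1 in 20.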

How the results depend on the processing

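All 10 genes kept their negative direction against controls in every alternative run, in Rar-deleted ovaries and in each Cre-positive genotype. In Rar-deleted ovaries against controls 9 of the 10 were called under other size factors, no filter and no robust option, 10 under DESeq2 (180 genes in all), 7 with a title-number term (40 genes), 3 in higher-numbered libraries alone (142 genes) and 0 in lower-numbered ones alone (0 genes). Leaving out 1 library gave 2 to 9 of the 10 and 5 to 52 genes. The count was 2 without either Dmrt1 het Rar mutant, without Rar mutant 2 or without control 4, where 5 or 6 genes were called in all. For Rar mutants against controls the 10 genes gave 5 calls with the title-number term (85 genes), 3 in higher-numbered libraries alone (142 genes), 9 under DESeq2 (357 genes), and 0 to 5 when 1 library was left out (1 to 384 genes, the most without Rar mutant 1). For Dmrt1 het Rar mutants against controls they gave 0 with the title-number term (1 gene), 10 under DESeq2 (279 genes) and 0 to 7 when 1 library was left out (0 to 364 genes, the most without control 1). The cause of these shifts was not tested, beyond the fewer samples in the smaller fits.

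Between Dmrt1 het Rar mutants and Rar mutants, Prr15l kept a log2 fold change from -1.66 to -1.05 and was called by DESeq2 (1 of the 10 genes, 480 genes). In lower-numbered libraries alone, with 1 Rar mutant assumed to vary like the other groups, 1088 genes were called and of the 10 genes 1, Sectm1b (-1.66). Leaving out 1 library called 0 of the 10 and 0 to 335 genes. Values near 0 changed sign with the title-number term (Gpr55 0.41, Slc27a2 0.43, Grb7 0.12), in lower-numbered libraries alone (Gpr55 0.52, Plekha6 0.015, Slc27a2 0.53, Atp6ap1l 0.52), and when 1 library was left out (Gpr55 -0.69 to 0.46, Anpep -0.29 to 0.32, Plekha6 -0.17 to 0.019, Slc27a2 -0.44 to 0.51, Atp6ap1l -0.37 to 0.43). Between title-number sets 3686 genes were called under DESeq2. The call of Prr15l was lost without a filter (0 of the 10 genes, -0.71) and in 9 of 10 fits without 1 library (0 to 1 of the 10, 120 to 3494 genes, Prr15l -1.01 to -0.37), where Atp6ap1l ran from -0.85 to 0.33, Sectm1b from -0.88 to 0.93 and Gpc3 from -0.30 to 0.052.

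Whether replicate numbers in the titles pair the libraries is not settled. Deviations of same-numbered libraries correlated from -0.087 to 0.435, and differently numbered libraries were not compared with them. With the replicate block 0 of the 10 genes were called in Rar-deleted ovaries against controls (0 genes) and 0 in Dmrt1 het Rar mutants against controls (0 genes), and between the Cre-positive genotypes Anpep (-0.14), Slc27a2 (0.17) and Atp6ap1l (0.17) changed sign. Counts of 3 to 26 per library limit Gpr55, Cnksr1, Slc27a2, Grb7 and Atp6ap1l within Rar-deleted ovaries.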
